A study of Mus musculus with 6 samples.

Results

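The 58 genes described here come from a deposited table of 3542 genes in HFD-liver of Mul1(+/+) and Mul1(−/−) mice. They are its chemokine, cytokine, cytokine receptor, Toll-like receptor (TLR), interferon-related, MHC and CD antigen genes. They were chosen by the start of the gene symbol alone, which is Ccl, Cxcl, Il with a digit, Tnf, Tlr with a digit, Irf, Gbp, Ifi, H2- or Cd with a digit, and Ifi44 and Ifi27l2a were left out. The choice gave 3 Ccl, 2 Cxcl, 8 Il, 7 Tnf, 5 Tlr, 2 Irf, 3 Gbp, 4 Ifi, 3 H2- and 21 Cd genes. Liver mRNA was sequenced from 3 wild-type Mul1(+/+) mice and 3 Mul1(−/−) mice. Both groups received a high-fat diet (HFD) for 16 weeks from 8 weeks of age, so no library of a normal diet is part of the comparison. The Mul1(−/−) mice lack the mitochondrial E3 ubiquitin ligase MUL1 in the whole body, so that hepatocytes and liver leukocytes carry the deletion alike. The study used males and females, and the sex of each library is not given. The labels name hepatocytes as the cell type, whereas the protocol names liver tissue, and the table holds hepatocyte genes such as Fga and Hnf4a beside T cell, dendritic cell and sinusoidal endothelial genes.

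The deposited table is a selection. The authors kept in it only genes that differed between the same 6 libraries in their own test, by 1 or more on the log2 scale in either direction and with adjusted p-values no higher than 0.05. A count of differences among the 58 genes is therefore not independent evidence of a difference. The annotation GENCODE M21 has 364 protein-coding genes whose symbols fit the choice, and 54 of them are in the table. The remaining 4 of the 58 genes are pseudogenes or polymorphic pseudogenes (Cxcl11, Gbp11, H2-K2 and Ifi203-ps). Values are normalized read counts, and the reads on the table's genes numbered between 11932163 and 15385822 per library. In these counts 1 read was worth 0.843, 0.886 and 0.817 in the 3 Mul1(+/+) libraries and 1.46, 1.22 and 0.878 in the 3 Mul1(−/−) libraries. The scale thus raised Mul1(−/−) replicates 1 and 2 above the others. Some groups that do not overlap in normalized counts overlap in reads. Cd300a, for example, had 302, 298 and 200 reads in Mul1(+/+) and 245, 593 and 662 in Mul1(−/−). Where a value is given for each library, it is in the order of replicates 1, 2 and 3. Mul1 itself, the targeted gene, had 3172, 3232 and 3423 normalized counts in the 3 Mul1(+/+) livers and 1037, 965 and 1753 in the 3 Mul1(−/−) livers, where the mean was 38.2% of that in Mul1(+/+). Mul1(−/−) replicate 3 stood apart, since the correlation of its log2 values with the other Mul1(−/−) libraries was 0.903 and 0.904, against 0.951 between replicates 1 and 2 and 0.978 to 0.984 within Mul1(+/+).

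As background, chemokines are secreted proteins that guide leukocytes through G protein-coupled receptors, and cytokines of the interleukin and TNF families signal through paired or trimeric receptors. Toll-like receptors recognize microbial molecules and signal through adaptor proteins to NF-κB and interferon regulatory factors. Interferons in turn raise guanylate-binding proteins and the Ifi200 family, and MHC proteins present peptides to T cells. CD antigens are surface proteins that mark leukocyte types. In liver, these genes are expressed mostly in Kupffer cells, infiltrating leukocytes and endothelium, whereas the receptors for IL-6 and IL-22 are characteristic of hepatocytes. In whole tissue, a larger number of cells of a type and more RNA per cell cannot be told apart.

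The DNA around transcription start sites is shown first for genes of the TLR, TNF and Ifi families. Over all families of the set, the letters of the interferon-stimulated response element were found in a larger share of genes than among all mouse genes. RefSeq gave such a window, of 250 bases before to 50 bases from the start, for 42 of the 58 genes (build GRCm38.p6). Letters of 3 motifs were searched on both strands, GAAANNGAAA for the interferon-stimulated response element, TTCNNNGAA for the gamma-activated site of STAT proteins and GAGGAAGT for PU.1, a factor of myeloid and B cells. The first was found in 9 of the 42 genes (21.4%) and in 1079 of all 27025 genes with a window (3.99%). Of the 9 genes, 8 were among the 33 that were higher in Mul1(−/−) and 1 was among the 9 that were lower. The gamma-activated site was found in 8 of the 42 genes (19.0%) against 9.55% of all genes, and the PU.1 letters in 4 (9.52%) against 3.69%. Several genes have more than 1 window, the letters do not show that a factor binds, and the shares were not tested. The set was chosen in part by interferon-related symbols, and Ifi203, Ifi205 and Ifi213 are among the 9 genes. The windows shown were chosen among those with a match of the first motif. In the windows below, written 5′ to 3′ on the strand of the gene, capitals mark letters of any of the 3 motifs. The windows of Ifi213, Tlr11 and Tnfsf13b are those of genes past the threshold, Ifi205 is a neighbour in the Ifi200 cluster, Tlr6 is shown for a run of overlapping matches, and Tnfrsf1b is the only lower gene with the first motif.
Ifi213 (chr1:173599223-173599522, minus strand): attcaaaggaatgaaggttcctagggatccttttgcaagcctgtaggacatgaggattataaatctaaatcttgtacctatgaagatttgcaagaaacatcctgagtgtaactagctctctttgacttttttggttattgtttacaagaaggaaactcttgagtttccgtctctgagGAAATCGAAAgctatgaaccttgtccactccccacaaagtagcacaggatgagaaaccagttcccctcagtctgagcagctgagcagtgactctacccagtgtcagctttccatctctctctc
Ifi205 (chr1:174031706-174032005, minus strand): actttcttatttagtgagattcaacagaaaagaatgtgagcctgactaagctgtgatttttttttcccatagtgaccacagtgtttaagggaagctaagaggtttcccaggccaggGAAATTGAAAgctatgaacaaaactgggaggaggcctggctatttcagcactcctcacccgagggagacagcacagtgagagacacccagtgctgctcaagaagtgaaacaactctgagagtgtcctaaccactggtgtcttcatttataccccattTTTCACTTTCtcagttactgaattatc
Tlr11 (chr14:50357664-50357963, plus strand): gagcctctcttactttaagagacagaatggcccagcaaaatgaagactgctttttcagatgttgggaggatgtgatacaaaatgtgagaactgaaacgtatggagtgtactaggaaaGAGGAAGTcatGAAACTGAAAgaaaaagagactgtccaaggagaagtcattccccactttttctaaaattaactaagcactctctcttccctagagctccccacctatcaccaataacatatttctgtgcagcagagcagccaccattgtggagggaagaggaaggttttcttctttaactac
Tnfsf13b (chr8:10006383-10006682, plus strand): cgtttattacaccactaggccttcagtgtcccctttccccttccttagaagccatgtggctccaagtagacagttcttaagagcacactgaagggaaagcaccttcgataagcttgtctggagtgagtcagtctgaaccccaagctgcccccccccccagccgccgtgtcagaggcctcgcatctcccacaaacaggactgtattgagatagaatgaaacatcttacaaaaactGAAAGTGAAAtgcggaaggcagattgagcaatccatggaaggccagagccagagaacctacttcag
Tlr6 (chr5:64959117-64959416, minus strand): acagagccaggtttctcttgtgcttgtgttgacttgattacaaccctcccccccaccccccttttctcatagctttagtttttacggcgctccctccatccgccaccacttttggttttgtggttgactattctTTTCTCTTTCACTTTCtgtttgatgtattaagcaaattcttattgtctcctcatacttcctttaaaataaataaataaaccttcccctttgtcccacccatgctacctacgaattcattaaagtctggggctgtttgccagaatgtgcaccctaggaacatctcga
Tnfrsf1b (chr4:145246821-145247120, minus strand): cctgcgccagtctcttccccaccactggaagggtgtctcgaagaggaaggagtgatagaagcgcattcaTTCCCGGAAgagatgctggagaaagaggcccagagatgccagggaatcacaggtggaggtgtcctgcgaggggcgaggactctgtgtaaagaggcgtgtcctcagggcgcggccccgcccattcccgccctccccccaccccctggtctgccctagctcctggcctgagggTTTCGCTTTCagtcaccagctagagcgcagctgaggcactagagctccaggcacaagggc
Counted from 1 at the 5′ end of the window, with the annotated start at base 251, the first motif lay at bases 178 to 187 in Ifi213, 129 to 138 in Tlr11 and 235 to 244 in Tnfsf13b. Ifi205 had it at bases 117 to 126 and, on the opposite strand, at 274 to 283. In Tlr6 a pair of matches overlapped on the opposite strand, at bases 135 to 144 and 141 to 150. In Tnfrsf1b it lay at bases 241 to 250 on the opposite strand, with a gamma-activated site at bases 70 to 78. In Tlr11 the PU.1 letters, at bases 118 to 125, stood just before the first motif.

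Most of the 58 genes were more abundant in Mul1(−/−) HFD-liver. The mean was higher in Mul1(−/−) for 45 genes and lower for 13, or 77.6% higher against 56.8% in the whole table. Among protein-coding genes the shares were 75.9% of 54 and 48.1% of 2851. All Ccl, Cxcl, Ifi and H2- genes and 19 of 21 Cd genes were higher, whereas the Il genes were divided evenly, 4 and 4. The median log2 fold change was 1.55, against 1.12 in the table, while the medians of the higher and the lower genes were 1.65 and −1.59, against 1.67 and −1.43 in the table. The test was limma on log2(normalized count + 1), and its p-values were corrected across all 3542 genes (Benjamini-Hochberg). The correction covers only genes that the authors' test had already selected in the same libraries. The adjusted p-values given here therefore do not control the share of false calls among all genes measured. A gene passed the threshold of the study's methods when its log2 fold change exceeded 1 in size and its adjusted p was under 0.01. By it 11 of the 58 genes passed, 19.0% against 24.1% of the whole table in either direction. Higher in Mul1(−/−) were 8 (Ccl27a, Cd160, Cd209a, Cd63, Ifi213, Tlr11, Tnfrsf4 and Tnfsf13b), where 16.7% of the table passed as higher. Lower were 3 (Cd300lg, Tlr5 and Tnfaip8l3), where 7.43% of the table passed as lower. The share that passed was thus not above that of the table. The ranges of the 2 genotypes did not overlap in 53 genes, 42 higher and 11 lower, against 90.3% of the table, and the exact two-sided permutation test cannot give a p below 0.1 with 3 libraries a group. The 5 genes with overlap were Cd48, Cxcl13, Gbp10, Gbp11 and Il6ra. The adjusted p-value was under 0.05 for 57 genes, with Cxcl13 (0.111) as the exception, and for 96.3% of the table. An unadjusted p under 0.05 was found for 57 genes and for 96.4% of the table.

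The number past the threshold depended on single libraries. In limma it was 0 without Mul1(+/+) replicate 1, 2 or 3 and without Mul1(−/−) replicate 2, with 47, 49, 38 and 45 of the 58 genes at an unadjusted p under 0.05 (2471, 3039, 2514 and 2740 in the table), and the whole table then held 25, 13, 46 and 10 genes past it. Without Mul1(−/−) replicate 1 it was 10, or 17.2% against 17.8% of the table. Without Mul1(−/−) replicate 3 it was 36, of which 26 were higher and 10 lower, or 62.1% against 75.5% of the table (1595 higher and 1078 lower). How the passing genes were divided changed with the scaling, here as in the whole table. A rescaling by median ratios, which moves the median log2 fold change of the table by −0.66, left 3 higher and 8 lower genes past the threshold (236 and 1031 in the table). A rescaling by the sum of the table, which moves it by −0.30, gave 9 higher and 7 lower genes (619 and 724 in the table). With the mitochondrial genome left out of that sum, the numbers were 12 and 2 (709 and 171 in the table). The factors of these rescalings came from the table's genes alone, which had been selected for differing between the groups. They can therefore carry part of that difference and are no neutral scale. Of the 11 calls, those of Ccl27a, Cd160, Cd209a, Tlr11 and Tnfsf13b were lost with median ratios, those of Cd160 and Tnfsf13b with the sum of the table and that of Cd300lg with the sum without the mitochondrial genome. With limma-trend Cd160, Tlr11 and Tnfsf13b no longer passed, and with a pseudocount of 0.5 Cd160 and Tlr11. The direction of each of the 58 genes was the same in every fit that was run. This follows in part from the selection of the table, which left no gene of this set nearer to 0 than 0.99 (Il10rb).

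**Figure D1:**
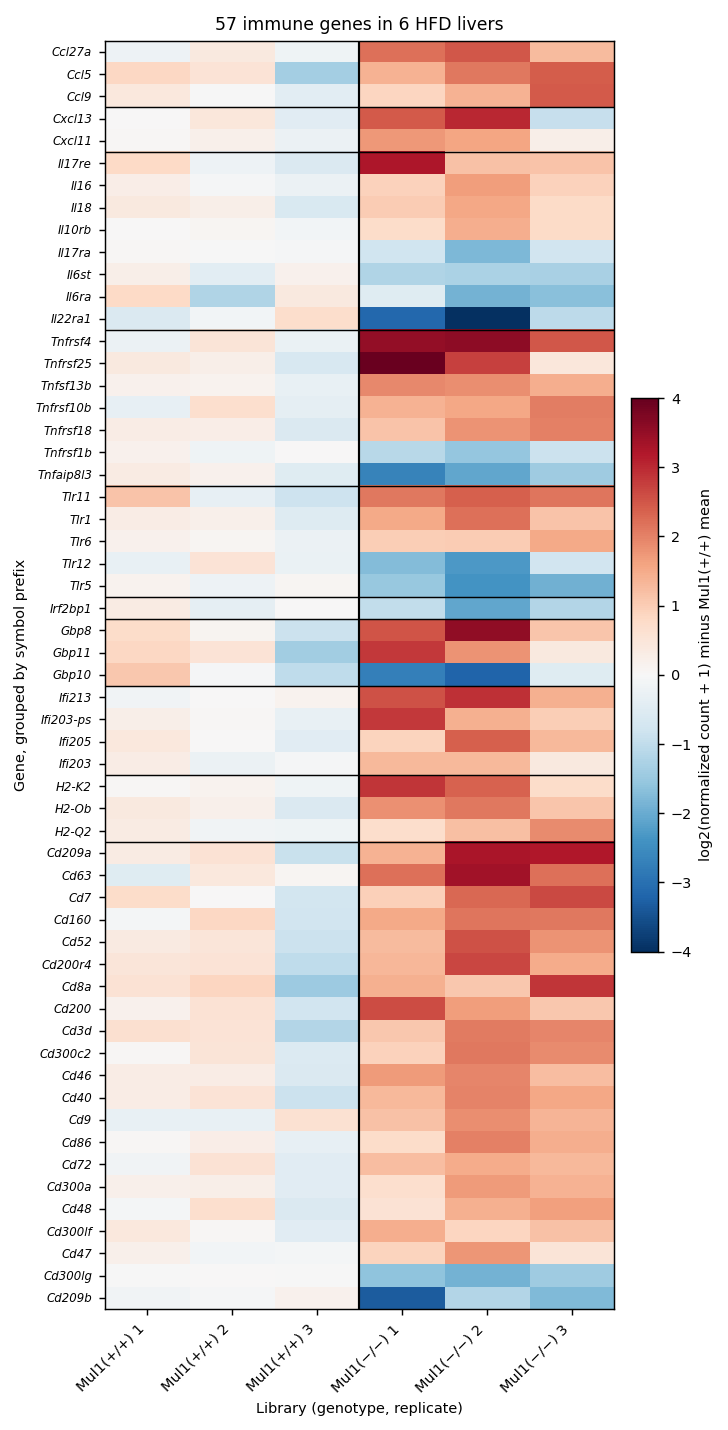
Value of 57 of the 58 genes in each library, as log2(normalized count + 1) minus the mean of the 3 Mul1(+/+) libraries, with 1 row per gene grouped by symbol prefix, 1 column per library and colours limited to 4 in either direction. Mul1(−/−) columns are red in the 45 higher genes and blue in the 12 lower ones shown, except for Cxcl13 in Mul1(−/−) replicate 3, and the column of Mul1(+/+) replicate 3 is the palest or bluest of the 3 in most Cd genes.

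**Figure D2:**
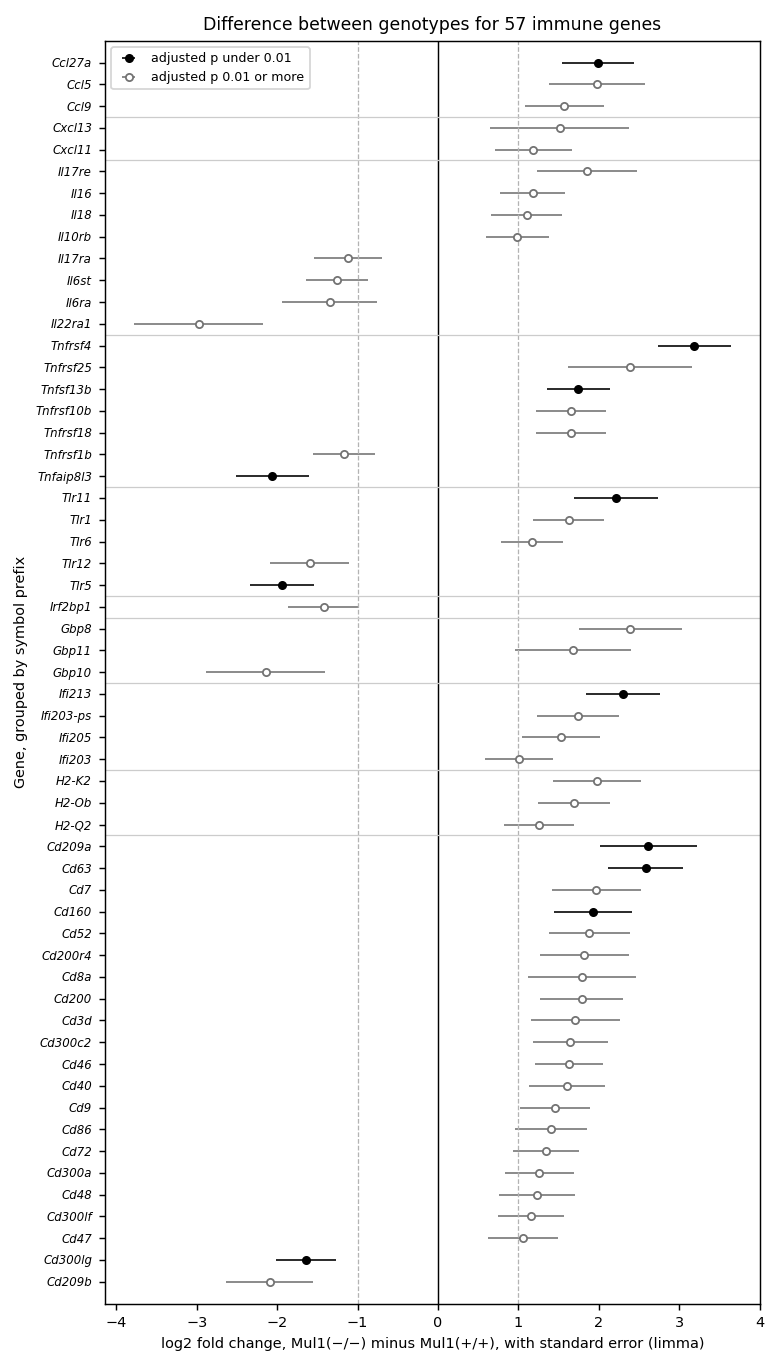
Log2 fold change of 57 of the 58 genes, Mul1(−/−) minus Mul1(+/+), with its standard error from limma (n = 3 per group), where filled points have an adjusted p-value under 0.01 and dashed lines mark 1 and −1. The 8 filled points on the right and 3 on the left are the genes past the threshold, and the 12 lower genes shown are Il, Tnf, Tlr, Irf, Gbp and Cd genes.

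The 8 chemokine and cytokine genes of the set were all more abundant in Mul1(−/−) HFD-liver, with log2 fold changes from 1.10 to 1.99. Ccl27a and Tnfsf13b passed the threshold, where 16.7% of the table passed as higher. Among the chemokines, Ccl27a (ENSMUSG00000073888, chr4:41769467-41774247, minus strand), the ligand of CCR10, had 197, 301 and 200.9 normalized counts in the 3 Mul1(+/+) livers and 1055, 1287 and 554 in the 3 Mul1(−/−) livers. Its mean rose from 233 ± 58.9 to 965 ± 375 (SD, n = 3 each), 4.14-fold (log2 fold change 1.99, standard error 0.45, adjusted p = 0.00816). All 3 Mul1(−/−) libraries were above all Mul1(+/+) libraries, with replicate 3 the lowest of them. Without Mul1(−/−) replicate 3 the adjusted p was 0.000804, and with any other library left out it was between 0.0128 and 0.0327. Mouse chromosome 4 carries further copies of Ccl27 and Il11ra genes, and Ccl27a shares 8 bases with Il11ra1 on the opposite strand, so its reads may have been divided or joined.

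Ccl5 and Ccl9, neighbours on chromosome 11 that are 42.4 kb apart, attract T cells and monocytes. Ccl5 had 67.4, 54.9 and 13.9 in the 3 Mul1(+/+) livers and 101, 164 and 206 in the 3 Mul1(−/−) livers (log2 fold change 1.98, standard error 0.59, adjusted p = 0.0151). Ccl9, the most abundant chemokine of the set per length of transcript, with 766 and 2470 normalized counts per kb in Mul1(+/+) and Mul1(−/−), had 1687, 1268 and 957 and 2316, 3299 and 6998 (log2 fold change 1.57, standard error 0.49, adjusted p = 0.0168). In both genes replicate 3 was the highest Mul1(−/−) library and, in Mul1(+/+), replicate 3 was the lowest. In the CXC chemokines replicate 3 was instead the lowest Mul1(−/−) library. Cxcl13, which attracts B cells, had 54.8, 74.4 and 39.2 in the 3 Mul1(+/+) livers and 301, 445 and 28.1 in the 3 Mul1(−/−) livers (log2 fold change 1.51, standard error 0.87, adjusted p = 0.111). Replicate 3 of Mul1(−/−) was thus below all Mul1(+/+) libraries while the other two were above them, and the log2 fold change was 2.73 without it, 1.04 without replicate 1 and 0.76 without replicate 2 (adjusted p = 0.43). Cxcl11, a ligand of CXCR3 annotated as a polymorphic pseudogene in the C57BL/6 reference, had 50.6, 56.7 and 41.6 and 165, 151 and 57.97 (log2 fold change 1.18, standard error 0.48, adjusted p = 0.0349). Its lowest Mul1(−/−) value, in replicate 3, lay only just above the highest Mul1(+/+) value.

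Of the cytokines, Tnfsf13b (ENSMUSG00000031497, chr8:10006467-10039072, plus strand) encodes BAFF, which maintains B cells. It rose from 11.8, 11.5 and 8.17 in the 3 Mul1(+/+) livers to 42.4, 40.4 and 29.9 in the 3 Mul1(−/−) livers (log2 fold change 1.75, standard error 0.39, adjusted p = 0.00796). These values rest on between 10 and 34 reads per library, and the groups were well separated. The call held without Mul1(−/−) replicate 3 (adjusted p = 0.00157) and in no other fit with 1 library left out, where the adjusted p was between 0.0154 and 0.0355. Il18, an inflammasome-processed cytokine, had 418, 375 and 208 and 643, 928 and 541 (log2 fold change 1.10, standard error 0.44, adjusted p = 0.033). Il16, a ligand of CD4, had 119, 96.5 and 84.1 and 189.9, 315 and 189.7 (log2 fold change 1.18, standard error 0.40, adjusted p = 0.0215). For both cytokines Mul1(−/−) replicate 2 was the highest library and no values overlapped between the groups.

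The 6 interleukin receptor genes differed in direction. Il6ra, Il6st, Il17ra and Il22ra1 were lower in Mul1(−/−), while Il10rb and Il17re were higher. None of the 6 passed the threshold in limma, and all 6 had an unadjusted p under 0.05, as did 96.4% of the table. Il22ra1, the ligand-binding chain of the IL-22 receptor in epithelium, had 169, 236 and 412 in the 3 Mul1(+/+) livers and 27.8, 8.57 and 123 in the 3 Mul1(−/−) livers (log2 fold change −2.98, standard error 0.80, adjusted p = 0.0114). This was the largest negative log2 fold change of the 58 genes, and its size depended on the library, from −3.95 to −2.10 with 1 left out. The highest Mul1(−/−) value was that of replicate 3, and the groups did not overlap. Il10rb, which completes the IL-22 and IL-10 receptors, had 375, 393 and 341 and 614, 1020 and 628 (log2 fold change 0.99, standard error 0.39, adjusted p = 0.0339), the opposite direction to its partner chain.

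Il6st encodes gp130, the shared signalling chain of IL-6 type cytokines. It had 8497, 5368 and 8046 in the 3 Mul1(+/+) livers and 3121, 2960 and 2926 in the 3 Mul1(−/−) livers, or 41.1% of the Mul1(+/+) mean (log2 fold change −1.25, standard error 0.39, adjusted p = 0.0161). The 3 Mul1(−/−) values lay within a narrow range below all Mul1(+/+) values. Il6ra, the IL-6 binding chain, had 3247, 821 and 2471 and 1343, 500.9 and 592 (log2 fold change −1.35, standard error 0.59, adjusted p = 0.0475), and Mul1(+/+) replicate 2 lay below Mul1(−/−) replicate 1, so that the groups overlapped. Per length of transcript Il6st was the most abundant interleukin receptor of the set, with 2629 normalized counts per kb in Mul1(+/+) against 364 for Il6ra. The chains of the IL-17C receptor also differed in direction. Il17ra, the common chain of IL-17 receptors, had 1152, 1088 and 1071 and 636, 316 and 649 (log2 fold change −1.12, standard error 0.42, adjusted p = 0.028). Il17re had 18.5, 8.86 and 6.53 and 107, 24.5 and 23.7 (log2 fold change 1.85, standard error 0.62, adjusted p = 0.0207), with replicate 1 far above the other Mul1(−/−) libraries.

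The TNF family members were higher in Mul1(−/−) except for Tnfrsf1b and Tnfaip8l3. The threshold was passed by 3 of the 7, where 24.1% of the table passed in either direction, and so small a number was not tested. Tnfrsf4 (ENSMUSG00000029075, chr4:156013843-156016612, plus strand), the OX40 receptor of activated T cells, had 1.69, 3.54 and 1.63 in the 3 Mul1(+/+) livers and 35.1, 36.7 and 16.7 in the 3 Mul1(−/−) livers. It rose from 2.29 ± 1.09 to 29.5 ± 11.1 (SD, n = 3 each), the largest log2 fold change of the 58 genes (log2 fold change 3.18, standard error 0.45, adjusted p = 0.00351). The Mul1(+/+) values are only 2, 4 and 2 reads. The ratio of the groups' pooled reads was 12.2 (95% exact interval 5.89 to 29.4), an interval that covers counting error only. The call held without Mul1(−/−) replicate 1 (adjusted p = 0.00193) or replicate 3 (adjusted p = 0.000245), and the adjusted p was between 0.0136 and 0.0254 with any other library left out.

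Tnfrsf18, the GITR receptor of regulatory T cells, lies 9.55 kb from Tnfrsf4. This gene fell outside the rule by which members were named and was added after its values had been seen. It had 12.6, 12.4 and 6.53 in the 3 Mul1(+/+) livers and 23.4, 38.0 and 43.9 in the 3 Mul1(−/−) livers (log2 fold change 1.65, standard error 0.44, adjusted p = 0.0112). All Mul1(−/−) values were above all Mul1(+/+) values, as in Tnfrsf4. Tnfrsf25, the DR3 receptor of T cells, had 10.96, 9.74 and 4.90 and 142, 60.01 and 11.4 (log2 fold change 2.39, standard error 0.77, adjusted p = 0.0183), and its replicate 3 of Mul1(−/−) was nearly level with the highest Mul1(+/+) library. Tnfrsf10b, a receptor of the death ligand TRAIL, had 10.1, 21.2 and 9.80 and 35.1, 39.2 and 56.2 (log2 fold change 1.65, standard error 0.44, adjusted p = 0.0113).

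In the other direction, Tnfrsf1b, the second TNF receptor, had 1611, 1265 and 1448 in the 3 Mul1(+/+) livers and 663, 492 and 785 in the 3 Mul1(−/−) livers, or 44.9% of the Mul1(+/+) mean (log2 fold change −1.17, standard error 0.39, adjusted p = 0.0197). Per length of transcript it was far more abundant than the 4 higher receptors, with 688 normalized counts per kb in Mul1(+/+) and 309 in Mul1(−/−). Tnfaip8l3 (ENSMUSG00000074345, chr9:54023405-54068388, minus strand) fits the symbol rule only by its name, since it encodes a phospholipid transfer protein related to a TNF-induced protein. It fell from 88.5, 79.7 and 49.8 to 10.2, 15.9 and 25.5 (log2 fold change −2.06, standard error 0.45, adjusted p = 0.00793). The call held without Mul1(−/−) replicate 3 (adjusted p = 0.00104), and with any other library left out the adjusted p was between 0.0141 and 0.0326.

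**Figure D3:**
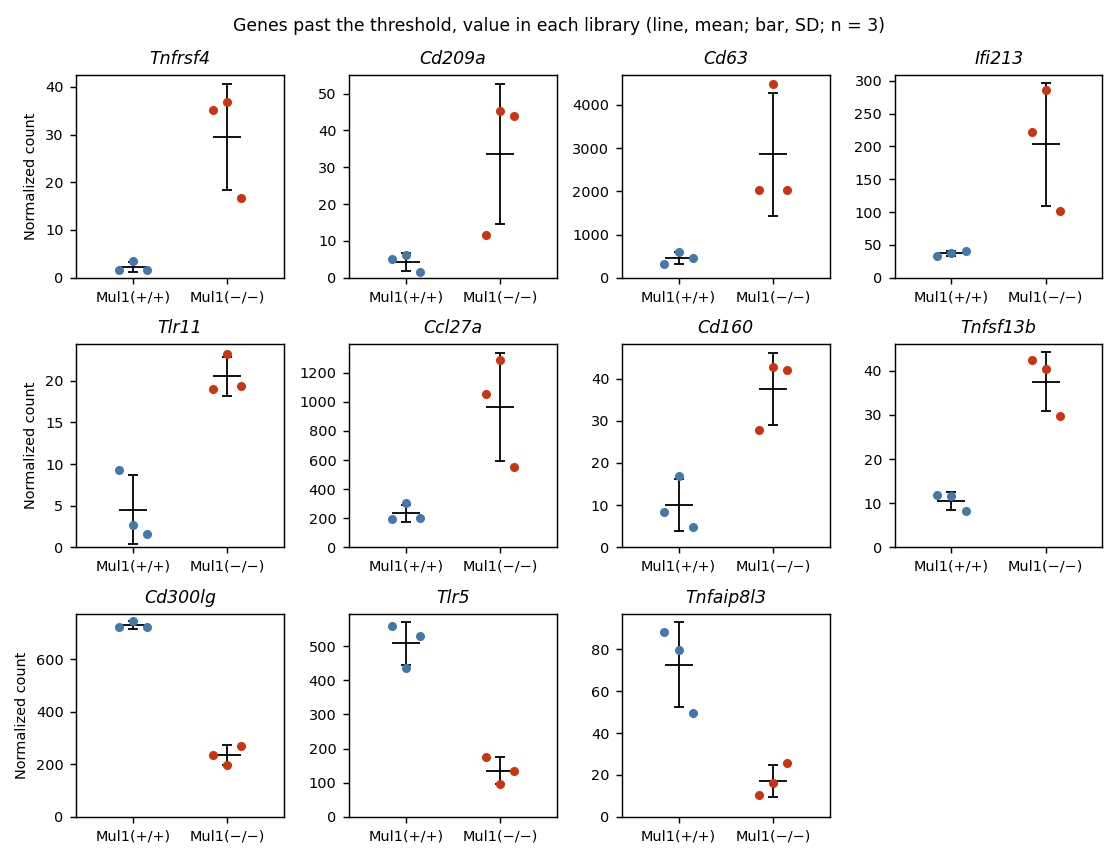
Normalized counts of the 11 genes past the threshold, with 1 point per library (blue Mul1(+/+), red Mul1(−/−), replicates 1 to 3 from left to right), a line at the mean and a bar for the SD (n = 3). The groups do not overlap in any panel, and the vertical axes, which start at 0, reach from 23.3 in the highest library of Tlr11 to 4496 in that of Cd63.

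Of 12 annotated protein-coding Tlr genes the table held 5, of which 3 were higher and 2 lower in Mul1(−/−). The threshold was passed by 1 of each direction, where 16.7% of the table passed as higher and 7.43% as lower. Tlr5 (ENSMUSG00000079164, chr1:182954788-182976044, plus strand), the receptor of bacterial flagellin, had 558, 437 and 530.0 in the 3 Mul1(+/+) livers and 175, 95.5 and 134 in the 3 Mul1(−/−) livers. Its mean fell from 508 ± 63.6 to 135 ± 39.9 (SD, n = 3 each), or to 26.5% (log2 fold change −1.94, standard error 0.40, adjusted p = 0.00701). The Mul1(−/−) values were all less than the lowest Mul1(+/+) value by a wide margin. Tlr11 (ENSMUSG00000051969, chr14:50357914-50363663, plus strand) and Tlr12 encode endosomal receptors of parasite profilin. Tlr11 rose from 9.27, 2.66 and 1.63 to 19.0, 23.3 and 19.3 (log2 fold change 2.21, standard error 0.52, adjusted p = 0.00889), and with 3 and 2 reads in Mul1(+/+) replicates 2 and 3 the ratio of pooled reads was 4.53 (95% exact interval 2.55 to 8.47), counting error only. Tlr12 had 679, 1204 and 691 and 249.9, 167 and 488 (log2 fold change −1.59, standard error 0.49, adjusted p = 0.0159). The pair of profilin receptors thus differed in direction, and Tlr12 was the more abundant in both groups, with 477 and 168 normalized counts per kb against 1.46 and 6.62 for Tlr11.

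Tlr1 and Tlr6 encode the partners of TLR2 in the recognition of bacterial lipopeptides and lie 18.5 kb apart on chromosome 5. Tlr1 had 54.8, 51.4 and 30.2 in the 3 Mul1(+/+) livers and 129, 206 and 99.2 in the 3 Mul1(−/−) livers (log2 fold change 1.63, standard error 0.44, adjusted p = 0.0118). Tlr6 had 26.1, 24.8 and 19.6 and 46.8, 47.8 and 68.5 (log2 fold change 1.16, standard error 0.39, adjusted p = 0.0199). Both were higher in every Mul1(−/−) library than in any Mul1(+/+) library. The calls of Tlr5 and Tlr11 held without Mul1(−/−) replicate 1 (adjusted p = 0.00661 and 0.00958) and without replicate 3 (adjusted p = 0.00203 and 0.00446). Without any one of the other 4 libraries, neither passed.

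The interferon-related genes were divided by family. The 4 Ifi genes, members of the Ifi200 family of DNA-binding proteins on chromosome 1, were all higher in Mul1(−/−). Ifi213 (ENSMUSG00000073491, chr1:173566283-173599274, minus strand) had 33.7, 37.2 and 40.8 in the 3 Mul1(+/+) livers and 222, 285 and 102 in the 3 Mul1(−/−) livers. It rose 5.45-fold, from 37.2 ± 3.56 to 203 ± 93.2 (SD, n = 3 each; log2 fold change 2.30, standard error 0.46, adjusted p = 0.00697), and the narrow Mul1(+/+) range lay below all Mul1(−/−) values. The call held without Mul1(−/−) replicate 1 or 3 (adjusted p = 0.0084 and 0.000376), whereas the adjusted p was between 0.0236 and 0.0301 with any other library left out. Ifi205 had 26.1, 19.5 and 13.9 and 36.5, 105 and 49.2 (log2 fold change 1.53, standard error 0.48, adjusted p = 0.0174). Ifi203 had 316, 221 and 249.9 and 643, 644 and 341 (log2 fold change 1.003, standard error 0.42, adjusted p = 0.0401), and its lowest Mul1(−/−) value, in replicate 3, was close to the highest Mul1(+/+) value. The pseudogene Ifi203-ps had 26.1, 23.0 and 18.0 and 162, 61.2 and 44.8 (log2 fold change 1.74, standard error 0.51, adjusted p = 0.0142). These genes are similar in sequence, and Ifi203 shares 22085 bases on the same strand with Mndal, which was also higher (log2 fold change 1.86), so the division of reads among them is uncertain.

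Guanylate-binding proteins are interferon-induced GTPases, and 3 of their genes, all within a cluster on chromosome 5, were in the table. Gbp8 had 98.6, 62.9 and 31.9 in the 3 Mul1(+/+) livers and 339, 689 and 127 in the 3 Mul1(−/−) livers (log2 fold change 2.39, standard error 0.64, adjusted p = 0.0115). Gbp11 had 393, 319.7 and 83.3 and 1577, 768 and 285 (log2 fold change 1.68, standard error 0.72, adjusted p = 0.0443). Gbp10 had 1477, 675 and 349 and 105, 74.7 and 502 (log2 fold change −2.14, standard error 0.74, adjusted p = 0.0223), in the opposite direction to its neighbours on either side. The groups overlapped in Gbp10 and Gbp11. In both, Mul1(−/−) replicate 3 lay within the Mul1(+/+) range. Gbp8 shares 61910 bases with Gbp9 and Gbp10 shares 23835 bases with Gm43302 on the same strand, so the division of reads among them is uncertain, and its part in their directions was not tested.

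Irf2bp1, which encodes a corepressor that binds IRF2 and is not itself an IRF, had 1673, 1020 and 1349 in the 3 Mul1(+/+) livers and 660.5, 309.8 and 583 in the 3 Mul1(−/−) livers (log2 fold change −1.42, standard error 0.44, adjusted p = 0.0162). Replicate 2 was the lowest Mul1(−/−) library, and the groups did not overlap.

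Of 34 annotated protein-coding H2- genes 2 were in the table, with the pseudogene H2-K2 beside them, and all 3 were higher in Mul1(−/−). H2-K2, a class I pseudogene, had 94.4, 101 and 81.7 in the 3 Mul1(+/+) livers and 677, 472 and 153 in the 3 Mul1(−/−) livers (log2 fold change 1.98, standard error 0.54, adjusted p = 0.0123). H2-Ob, a chain of the class II modulator H2-O of B cells and dendritic cells, had 47.2, 41.6 and 23.7 and 130.04, 160.4 and 79.0 (log2 fold change 1.69, standard error 0.45, adjusted p = 0.0113). H2-Q2, a class I-b gene, had 23.6, 16.8 and 16.3 and 30.7, 44.1 and 72.0 (log2 fold change 1.26, standard error 0.44, adjusted p = 0.0222). None passed the threshold in limma. All 3 had an unadjusted p under 0.05 and groups without overlap, as had 96.4% and 90.3% of the table. Class I genes resemble each other closely, so reads of H2-K2 and H2-Q2 may belong in part to other H2 genes.

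The 21 Cd genes made up the largest group, with 19 higher and 2 lower in Mul1(−/−). The threshold was passed by 3 of the higher and 1 of the lower genes, where 24.1% of the table passed in either direction. Per length of transcript the most abundant were Cd47, Cd9 and Cd63, which many cell types express. Cd63 (ENSMUSG00000025351, chr10:128900989-128912822, plus strand), a tetraspanin of lysosomes and exosomes, had 312, 589 and 467 in the 3 Mul1(+/+) livers and 2030, 4496 and 2038 in the 3 Mul1(−/−) livers. It rose 6.26-fold (log2 fold change 2.58, standard error 0.47, adjusted p = 0.0064), and the highest library was Mul1(−/−) replicate 2. Cd9, the other tetraspanin, had 675, 679 and 1284 and 1876, 3035 and 2135 (log2 fold change 1.45, standard error 0.43, adjusted p = 0.0146), and is 1 of 2 higher genes whose highest Mul1(+/+) value was in replicate 3. Cd47, the signal that inhibits phagocytosis, had 3736, 2985 and 3046 and 6011, 10988 and 4606 (log2 fold change 1.05, standard error 0.44, adjusted p = 0.038). Its per-length mean was 2520 normalized counts per kb in Mul1(+/+) and 5574 in Mul1(−/−), the highest Mul1(−/−) mean of the 58 genes on that scale. The call of Cd63 held without Mul1(−/−) replicate 1 or 3 (adjusted p = 0.003 and 0.000902) and in no fit without another library, where the adjusted p was between 0.0196 and 0.0301.

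The Cd209 genes encode C-type lectins that differed in direction. Cd209a (ENSMUSG00000031494, chr8:3743397-3748984, minus strand), a dendritic cell lectin, had 5.06, 6.20 and 1.63 in the 3 Mul1(+/+) livers and 11.7, 45.3 and 43.9 in the 3 Mul1(−/−) livers, and it rose 7.83-fold (log2 fold change 2.62, standard error 0.60, adjusted p = 0.00833). With 6, 7 and 2 reads in Mul1(+/+), the ratio of pooled reads was 8.49 (95% exact interval 4.90 to 15.8), counting error only. Cd209b, known from marginal zone macrophages, had 21.1, 23.0 and 26.9 and 1.46, 9.80 and 6.15 (log2 fold change −2.10, standard error 0.54, adjusted p = 0.0109). In Mul1(−/−) it was counted by 1, 8 and 7 reads, and the ratio of pooled reads was 0.255 (95% exact interval 0.14 to 0.439). The groups did not overlap in either gene. The call of Cd209a held without Mul1(−/−) replicate 1 or 3 (adjusted p = 0.00142 and 0.00617), and without another library the adjusted p was between 0.0243 and 0.036.

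The CD300 receptors, which recognize lipids on cells, lie on chromosome 11, where Cd300a, Cd300c2 and Cd300lf are neighbours and Cd300lg lies apart. Cd300lg (ENSMUSG00000017309, chr11:102041509-102055620, plus strand), expressed in capillary endothelium, had 724, 747 and 724 in the 3 Mul1(+/+) livers and 237, 197 and 271 in the 3 Mul1(−/−) livers. It fell from 732 ± 13.7 to 235 ± 37.1 (SD, n = 3 each), with the smallest standard error of the 58 genes (log2 fold change −1.65, standard error 0.37, adjusted p = 0.00816). The 3 neighbouring leukocyte genes had the other direction, with log2 fold changes of 1.64 for Cd300c2, 1.26 for Cd300a and 1.16 for Cd300lf. Their adjusted p-values were 0.0134, 0.0217 and 0.0235. Cd300a, an inhibitory receptor of myeloid cells, had 255, 264 and 163 and 358, 726 and 581. This gene fell outside the rule by which members were named, and its values were added after they had been seen. The call of Cd300lg held without Mul1(−/−) replicate 3 (adjusted p = 0.00187), and the adjusted p was between 0.0148 and 0.0345 with any other library left out.

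CD genes of T and NK cells were Cd3d, Cd7, Cd8a and Cd160, and their log2 fold changes lay between 1.71 and 1.97. Cd160 (ENSMUSG00000038304, chr3:96798763-96829351, minus strand), a receptor of NK cells and cytotoxic T cells, rose from 8.43, 16.8 and 4.90 in the 3 Mul1(+/+) livers to 27.8, 42.9 and 42.2 in the 3 Mul1(−/−) livers (log2 fold change 1.93, standard error 0.48, adjusted p = 0.00992). These values are 10, 19 and 6 reads against 19, 35 and 48. The ratio of pooled reads was 3.91 (95% exact interval 2.64 to 5.91), counting error only. The call held without Mul1(−/−) replicate 1 or 3 (adjusted p = 0.00956 and 0.00683), and without another library the adjusted p was between 0.024 and 0.0431. Cd160 shares 68 bases with Pdzk1 on the opposite strand, which was lower in Mul1(−/−). Cd7, an early T and NK cell antigen, had 31.2, 18.6 and 10.6 and 36.5, 94.3 and 121 (log2 fold change 1.97, standard error 0.55, adjusted p = 0.0131). The values of Cd3d and Cd8a and of the other Cd genes given from here on were added after they had been seen. Cd3d, a chain of the T cell receptor complex, had 34.6, 31.9 and 8.98 and 46.8, 95.5 and 87.0 (log2 fold change 1.71, standard error 0.56, adjusted p = 0.019). Cd8a, the co-receptor of cytotoxic T cells, had 22.8, 28.3 and 4.90 and 42.4, 33.1 and 115.0 (log2 fold change 1.79, standard error 0.67, adjusted p = 0.0278), with replicate 3 the highest Mul1(−/−) library. In all 4 genes Mul1(+/+) replicate 3 was the lowest library, and without it the log2 fold change of Cd8a was 1.07.

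Of the genes of antigen-presenting cells, Cd86, the costimulatory ligand of CD28, had 123, 141 and 94.7 in the 3 Mul1(+/+) livers and 197, 485 and 322 in the 3 Mul1(−/−) livers (log2 fold change 1.40, standard error 0.44, adjusted p = 0.0175). Cd40, the receptor through which T cells activate these cells, had 41.3, 49.6 and 18.0 and 83.3, 136 and 98.4 (log2 fold change 1.61, standard error 0.47, adjusted p = 0.0143). Cd72, an inhibitory receptor of B cells, had 107, 176 and 85.8 and 279, 332 and 289 (log2 fold change 1.34, standard error 0.41, adjusted p = 0.0161), and shares 1603 bases with Tesk1 on the opposite strand, which was lower. All 3 had their lowest value in Mul1(+/+) replicate 3 and their highest in Mul1(−/−) replicate 2. Cd200, an inhibitory ligand, had 27.8, 37.2 and 13.9 and 153, 79.6 and 52.7 (log2 fold change 1.78, standard error 0.52, adjusted p = 0.0143), with replicate 1 the highest. Cd200r4, of the Cd200 receptor cluster, had 10.96, 11.5 and 3.27 and 20.46, 53.9 and 22.8 (log2 fold change 1.82, standard error 0.55, adjusted p = 0.0155).

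Among the remaining Cd genes, Cd52, a small surface protein of lymphocytes and monocytes, had 209, 228 and 89.8 in the 3 Mul1(+/+) livers and 396, 952 and 573 in the 3 Mul1(−/−) livers (log2 fold change 1.88, standard error 0.50, adjusted p = 0.0116). Cd48, the ligand of the NK receptor 2B4, had 61.5, 103 and 42.5 and 97.9, 176 and 206 (log2 fold change 1.23, standard error 0.47, adjusted p = 0.0303). Cd48 was the only Cd gene whose groups overlapped, because Mul1(+/+) replicate 2 lay above Mul1(−/−) replicate 1. Cd46, a complement regulator, had 18.5, 18.6 and 9.80 and 51.1, 61.2 and 36.9 (log2 fold change 1.63, standard error 0.43, adjusted p = 0.011), and it shares 1079 bases with A330023F24Rik on the opposite strand, which was also higher. Cd300c2, an activating receptor, had 141, 193 and 92.3 and 260.1, 595 and 503. Cd300lf, an inhibitory receptor, had 65.7, 50.5 and 35.1 and 134, 89.4 and 112. Both were higher in all Mul1(−/−) libraries than in all Mul1(+/+) libraries.

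Among the higher genes Mul1(+/+) replicate 3 was mostly the lowest library of its group. It was the lowest Mul1(+/+) library in 39 of the 45 higher genes (86.7%), against 866 of the 2012 higher genes of the table (43.0%). Mul1(−/−) replicate 1 was the lowest Mul1(−/−) library in 23 (51.1%) against 21.8% of the table and replicate 3 in 20 (44.4%) against 71.7%. Replicate 3 was the highest in 9 (20%) against 8.55%. Mul1(−/−) replicate 2 was the highest in 27 (60%) against 53.1%. The median difference of the 45 genes from the Mul1(+/+) mean was 0.28, 0.24 and −0.47 on the log2 scale in the 3 Mul1(+/+) livers and 1.38, 1.95 and 1.38 in the 3 Mul1(−/−) livers. For the higher genes of the table it was −0.11, 0.24 and −0.13, and 1.88, 2.001 and 1.15. Without Mul1(+/+) replicate 3 the median log2 fold change of all 58 genes was 1.21 instead of 1.55. In the 13 lower genes replicate 2 was the lowest Mul1(−/−) library in 10 (76.9%), close to the 73.3% of the table. These shares describe 6 libraries and were not tested.

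**Figure D4:**
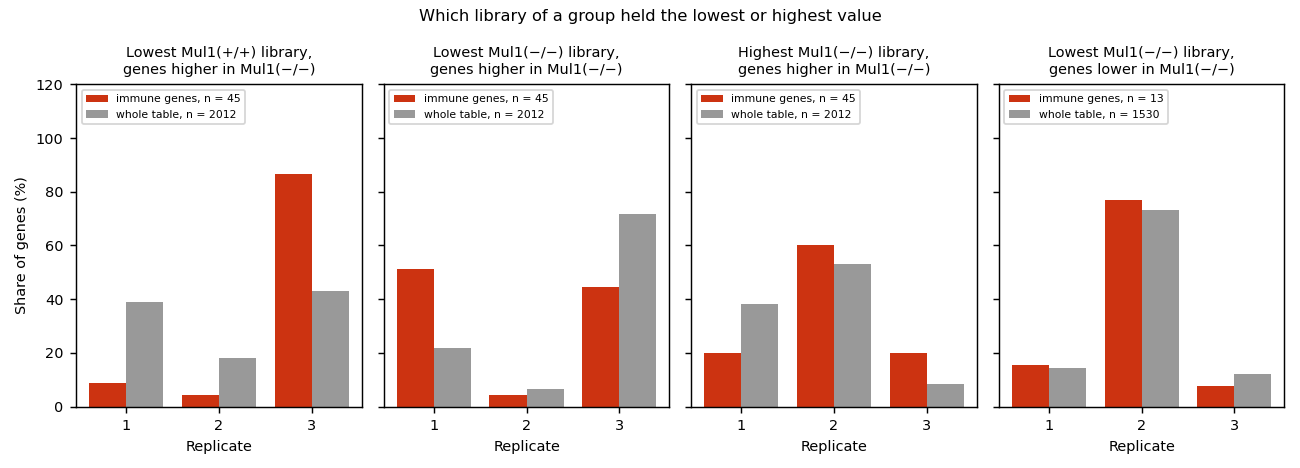
Share of genes in which each replicate was the lowest or the highest library of its group, for the 45 higher and 13 lower immune genes (red) and for the 2012 higher and 1530 lower genes of the whole table (grey). In the first panel the red bar of Mul1(+/+) replicate 3 reaches 86.7% against 43.0% for the table, and in the last panel the immune genes and the table are alike.

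Neighbouring genes mostly had the same direction. Of 9 pairs of members within 150 kb of each other, 7 shared a direction, namely those of the Ifi203-ps, Ifi203 and Ifi205 cluster, Ccl5 and Ccl9, Tnfrsf4 and Tnfrsf18, Tlr1 and Tlr6, and the pairs of Cd300a with Cd300c2 and of Cd300c2 with Cd300lf. The 2 pairs with opposite directions both include Gbp10. Neighbours of this kind are mostly related in sequence, and the pairs are not independent. With 45 of the 58 genes higher, any pair of members would often share a direction, and the count was not tested.

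Transcript length went with direction in this set as in the table. The median of annotated transcript lengths was 1263.5 nucleotides for the 41 higher and 2479 for the 13 lower protein-coding genes, against 1024 and 1978 for the genes of the table. Of the 10 genes with transcripts of 883 nucleotides or shorter, the shortest of 3 equal classes of the table's protein-coding genes, 10 were higher (62.8% in the table). In the middle class 20 of 25 were higher (52.3% in the table), and in the longest class 11 of 19 (29.3% in the table). The rank correlation (Spearman's rho) of length with log2 fold change was −0.39 over the 54 genes and −0.26 over 2851 genes of the table. Genes are not independent replicates, and the part of length in the directions was not tested.

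**Figure D5:**
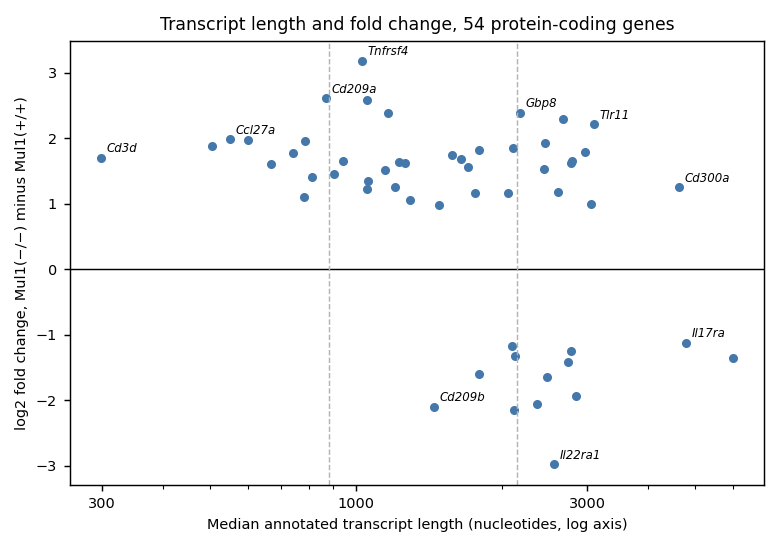
Log2 fold change of the 54 protein-coding genes against the median length of their annotated transcripts on a log axis, with 1 point per gene and dashed lines at the bounds of the 3 length classes of the table's protein-coding genes. All genes left of the first line are above 0, and the 13 genes below 0 lie from Cd209b to the right.

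The signalling partners of these proteins were looked up in lists fixed by function. Of 21 listed partners of Toll-like receptor signalling 4 were in the table and all 4 were lower in Mul1(−/−), among them Traf6 with 949.9, 657 and 955 in the 3 Mul1(+/+) livers and 348, 247 and 353 in the 3 Mul1(−/−) livers (log2 fold change −1.43, standard error 0.39, adjusted p = 0.0123). Irak4 and Traf3 had log2 fold changes of −1.16 and −1.20. None of the 4 passed the threshold in limma, and all 4 had an unadjusted p under 0.05 (96.4% of the table). Of 20 NF-κB pathway genes the table held 7, of which 4 were higher and 3 lower, with Traf1 at 1.62 and Ripk1 at −1.37, and 0 passed in limma, with 6 at an unadjusted p under 0.05. Of 26 genes of interferon and cytokine receptor signalling 4 were in the table, 2 lower, with Stat3 at −1.16, and 2 higher, Csf2ra at 1.12 and Csf3r at 1.15. Again 0 passed in limma, with 3 at an unadjusted p under 0.05, against 96.4% of the table. Antigen processing was represented by 1 of 22 genes, Rfx5 (−1.13). Of 25 listed chemokine receptors and remaining chemokines, Xcl1 alone was in the table, with 4.21, 8.86 and 5.72 and 13.2, 85.7 and 50.9 (log2 fold change 2.51, standard error 0.63, adjusted p = 0.0101).

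The listed leukocyte markers that were in the table mostly had the direction of the higher genes. Of 17 T and NK cell markers the table held 5, each higher in Mul1(−/−), and the sum of their normalized counts per library was 656, 641 and 336 in the 3 Mul1(+/+) livers and 1049, 2060 and 1098 in the 3 Mul1(−/−) livers. The lowest sum was again that of Mul1(+/+) replicate 3. All 3 dendritic cell markers in the table, of 9 listed, were higher, with sums of 149, 116 and 65.3 against 421, 487 and 339, and Clec9a passed the threshold (log2 fold change 2.19, standard error 0.45, adjusted p = 0.00701). Of 12 monocyte and neutrophil markers 3 were in the table and higher, with sums of 694, 707 and 379 against 2214, 2627 and 1602. Plac8, which made up 1682, 1619 and 924 of the latter, passed (log2 fold change 2.35, standard error 0.47, adjusted p = 0.00692). In Fcgr3 and Csf3r the groups overlapped. Among 18 Kupffer cell and macrophage markers the table held 5, of which 4 were higher and 1 was lower, with sums of 7544, 10877 and 4658 against 8671, 12304 and 16681, and Spp1 passed (log2 fold change 1.66, standard error 0.39, adjusted p = 0.00889). The groups did not overlap in 4 T and NK cell, 3 dendritic cell, 1 monocyte and neutrophil and 1 macrophage marker, against 90.3% of the table. In limma 5, 3, 2 and 4 of these lists' genes had an unadjusted p under 0.05, against 96.4% of the table. Of 10 B and plasma cell markers only Fcmr was in the table, and it fell from 31.2, 54.9 and 34.3 to 8.77, 15.9 and 7.90 (log2 fold change −1.81, standard error 0.43, adjusted p = 0.00912), whereas H2-Ob and Cd72 were higher.

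The listed sinusoidal endothelial and hepatocyte markers that were in the table were lower, and no other liver cells were looked up. The 3 sinusoidal endothelial markers in the table, of 12 listed, summed to 5145, 5728 and 5669 in the 3 Mul1(+/+) livers and 1875, 2901 and 3020 in the 3 Mul1(−/−) livers, beside the lower Cd300lg. The 5 hepatocyte markers in the table, of 16 listed, summed to 728788, 633705 and 631287 against 255184, 230474 and 382842, beside the lower Il6st, Il6ra and Il22ra1. None of these 8 genes passed the threshold in limma, and all 8 had an unadjusted p under 0.05, which was so for 96.4% of the table. The defining genes Trac of T cells, Clec4f and Timd4 of Kupffer cells and Alb of hepatocytes were listed but are not in the table. Whether they differed between the genotypes is therefore not shown here. The part of cell composition in the values of the 58 genes was not tested.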

How the data were processed

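Liver mRNA of 3 Mul1(+/+) and 3 Mul1(−/−) mice on HFD was sequenced and analysed by GENEWIZ. The authors deposited 1 table whose library columns hold normalized counts from DESeq2, with separator commas and a dash for 0, which are neither log2 values nor raw counts. Aligner, counting tool, strand use and genome build are not given in the sources used here. Columns with the authors' log2 fold changes, p-values and adjusted p-values were not used beyond their limits. Here 1 was added, log2 was taken, and limma 3.58.1 (R 4.3.3) compared the genotypes with no further term and no filter, adjusting over 3542 genes. A fold change on this scale understates that of genes with few reads. The value of 1 read was taken from the low values, and 100% of values under 10000 were whole multiples of it within 0.1 read. No count test was run. The fit was tested on simulated data. Coordinates, types and lengths are from GENCODE M21 (GRCm38), which matched all 58 genes, and promoter windows from RefSeq. Python 3.11.15 was used for the rest.

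The labels name no individual mice, so p-values measure the spread between these libraries, which may be technical in part. Replicate numbers were not taken as pairs. The genes and lists were chosen with earlier results of these data known. Values in every library are given for all members of families of at most 4 genes, except 1 gene that is counted but not reported here, and in larger families for the 4 largest rises, the 4 largest falls, the 3 highest means and up to 5 genes past the threshold. Other members, named as such, overlapping genes and the groups by role were added after values had been seen, as was the choice of promoters. From each list at most 3 genes are named.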

Additional observations from a re-analysis of the deposited data

How the results depend on the processing

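The number of the 58 genes past the threshold, 11 of them with 854 in the table, moved with the setting. It was 56 (3380 in the table) at an adjusted p under 0.05, 25 (1869) with limma-trend, 21 (1399) with a pseudocount of 5, and 16 against 1343 in the table when rescaled by the table's total. With 1 library left out it ranged from 0 to 36, and from 10 to 2673 in the table. The median log2 fold change of 1.55 was 0.90 when rescaled by the median ratio and 1.26 by the table's total, and ranged from 1.21 to 1.68 with 1 library left out. Values did not overlap between the groups in 53 genes as deposited and in 31 after rescaling by the median ratio. The rescaling factors came from the selected genes of the table alone, on counts that were already normalized. The number higher in Mul1(−/−), 45, was the same in all these fits. For single genes, 669 of the fold changes under an alternative stayed on their side of the threshold, 71 came to pass it, 72 no longer passed it and none changed direction. With the replicate number as a block, 0 of the 58 genes and 0 of the table passed in limma, with 55 and 3314 at an unadjusted p under 0.05, and the median log2 fold change stayed at 1.55. Deviations of same-numbered libraries correlated at 0.02, 0.35 and 0.05, and those of other-numbered libraries between −0.20 and 0.13. The value of replicate 2 was thus the largest of all. The labels name no individual mice, and the numbers were not taken as pairs. The alternatives with edgeR were not run, since the values were not used as counts. In 12 of the 58 genes at least 1 library has under 10 reads, which limits their precision.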
